A study of Mus musculus with 24 samples.

Results

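Immediate early genes are transcribed within minutes of a stimulus, before any new protein has to be made. Growth factors, injury, stress kinases and mechanical strain all switch them on through factors that are already present, such as SRF with its ELK partners and CREB, and their mRNAs are short-lived. The 10 genes described here were taken by name: the AP-1 subunits Fos, Fosb and Junb, the zinc finger factor Egr1, the nuclear receptor Nr4a1, the nuclear protein Ier2, the stress-responsive survival regulator Ier3, the secreted matricellular protein Ccn1 (named Cyr61 in older annotation), the MAP kinase phosphatase Dusp1 and the antiproliferative gene Btg2. All 10 were among the 12393 genes tested, with 12 of the 20380 probe sets assigned to a single gene. These genes and the lists used below were chosen with earlier results of these data known. Their counts beside shares of all genes are therefore a description and no independent test. In peripheral nerve these genes are known for their response to injury and to axonal growth factor signals, and because they answer so fast they can also be induced while a tissue is being dissected.

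Sciatic nerves of 4 genotypes of mice were profiled on 24 Affymetrix arrays at postnatal day 5 (P5), P28 and 4 months, with 2 arrays labelled as biological replicates in each of the 12 groups. WT mice carry neither change. S63del mice carry a form of myelin protein zero that lacks 1 serine and causes a Charcot-Marie-Tooth 1B neuropathy, CHOP null mice lack CHOP, the stress transcription factor encoded by Ddit3, and S63del/CHOP null mice combine both. Whole nerve without its perineurial sheath was frozen in liquid nitrogen and extracted with Trizol, so all the cell types of the nerve contributed RNA, and fewer cells of a type cannot be told apart from less RNA per cell. The sources used here do not give the number of animals behind an array, the copy number of either allele, or the time from death to freezing.

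Values are log2 expression as deposited. Their precision is limited by the 2 arrays of a group. Levels are not compared between genes. Differences are log2 differences ± SE from limma with Benjamini-Hochberg adjusted p-values over all 12393 genes, and a gene was called higher or lower at an adjusted p under 0.05. Ddit3 was at 6.60 to 7.37 in the 12 arrays of the CHOP null genotypes and at 7.61 to 9.59 in the other 12. All 6 measured Schwann cell markers were bright (lowest value 9.49, for Erbb3). The 8 P28 arrays had a narrower distribution than the others, with an interquartile range of 2.90 to 3.52 against 3.77 to 3.90, so that comparisons between ages also compare distributions. CHOP null P28 replicate 2 and WT 4 months replicate 1 stood apart. The first had the lowest interquartile range of the 24 arrays, 2.90. Its median absolute gap to its partner over all genes was 0.36, against 0.09 to 0.18 in the other 11 groups. That gap alone does not show which of the 2 arrays stood apart. The second had a Gapdh 3' minus 5' probe difference of 2.12, the highest of the 24 arrays. Both S63del arrays at 4 months came next, at 1.32 and 1.05.

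Of the 10 genes, 8 had a promoter window in the RefSeq table (build GRCm38.p6), here the 250 bases upstream of the annotated start, and Egr1 and Ier2 had none. The windows of Fos, Ccn1 and Ier3 are printed because these genes were called at P5, and that of Dusp1 because it holds 1 of the same motifs while its gene was not called between genotypes. Capitals mark exact matches, on either strand, to TGACGT (the core of the cyclic AMP response element), TATAAA (the core promoter box that TBP binds) and GGAATG (the site of TEAD factors).
Fos, chr12:85473640-85473889, plus strand: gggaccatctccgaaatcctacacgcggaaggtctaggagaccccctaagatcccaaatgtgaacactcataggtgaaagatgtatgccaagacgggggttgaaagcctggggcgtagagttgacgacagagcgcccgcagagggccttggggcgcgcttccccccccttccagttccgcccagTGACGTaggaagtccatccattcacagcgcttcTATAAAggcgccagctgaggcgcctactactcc
Ccn1, chr3:145649986-145650235, minus strand: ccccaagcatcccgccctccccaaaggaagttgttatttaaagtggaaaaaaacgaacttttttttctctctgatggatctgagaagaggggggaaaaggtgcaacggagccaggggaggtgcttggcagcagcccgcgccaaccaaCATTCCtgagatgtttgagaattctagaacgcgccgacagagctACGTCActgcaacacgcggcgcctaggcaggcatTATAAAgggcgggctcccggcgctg
Ier3, chr17:35821463-35821712, plus strand: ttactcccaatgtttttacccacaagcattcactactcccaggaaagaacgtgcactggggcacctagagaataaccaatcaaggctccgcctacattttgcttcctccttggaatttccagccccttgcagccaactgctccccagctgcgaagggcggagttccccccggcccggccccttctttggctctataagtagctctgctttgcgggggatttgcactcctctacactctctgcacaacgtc
Dusp1, chr17:26508473-26508722, minus strand: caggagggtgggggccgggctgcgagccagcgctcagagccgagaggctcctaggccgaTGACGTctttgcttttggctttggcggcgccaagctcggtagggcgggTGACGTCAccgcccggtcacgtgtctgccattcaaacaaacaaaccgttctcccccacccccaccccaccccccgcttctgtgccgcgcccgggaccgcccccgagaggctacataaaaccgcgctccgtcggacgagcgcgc
TGACGT was found in 4 of the 8 windows (Fos, Ccn1, Dusp1 and Btg2), against 6.47% of all 32851 windows in the table. Fos and Ccn1 held it 61 to 66 and 54 to 59 bases before the start, each with a TATA box downstream at 28 to 33 and 20 to 25 bases (TATAAA in 12.4% of all windows). GGAATG was present in Ccn1 and Nr4a1, against 12.6% of all windows. None of the 8 windows held the AP-1 site TGANTCA (6.75% of all windows), the heat shock element core GAANNTTC (6.69%), the C/EBP-ATF composite TGATGNAA (3.45%) or a CArG box (1.47%), the motif of SRF. The heat shock element core was searched only as GAANNTTC. The Ccn1 window holds ttctagaa, the same triplets in the other order, which was not searched. The absence of GAANNTTC therefore says nothing of heat shock elements in that order. Ier3 held none of the 7 motifs searched. These are letter matches within 250 bases and say nothing of binding, and the GC content of the 8 windows, from 54.4% to 74.4%, was above the median of 52.4% over all windows.

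At P5, when myelination begins, mutant nerve had higher levels of Fos, Ccn1 and Ier3 whether or not CHOP was present. In S63del against WT, 3 of the 10 genes were called higher and none lower, where 2.4% of all genes were called, 1.15% higher and 1.26% lower. The mutant allele without CHOP (S63del/CHOP null against CHOP null), a comparison that uses none of those arrays, also gave 3 called higher and none lower, against 1.78% of all genes, 0.904% higher and 0.88% lower. The called genes were Ccn1, Fos and Ier3 in both comparisons, which share no array but do share 1 estimate of the spread per gene. The median difference over the 10 genes was 0.62 with CHOP and 0.27 without it, against -0.02 and -0.001 over all genes. With CHOP 10 of the 10 differences lay above 0, and without it 8.

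**Figure D1:**
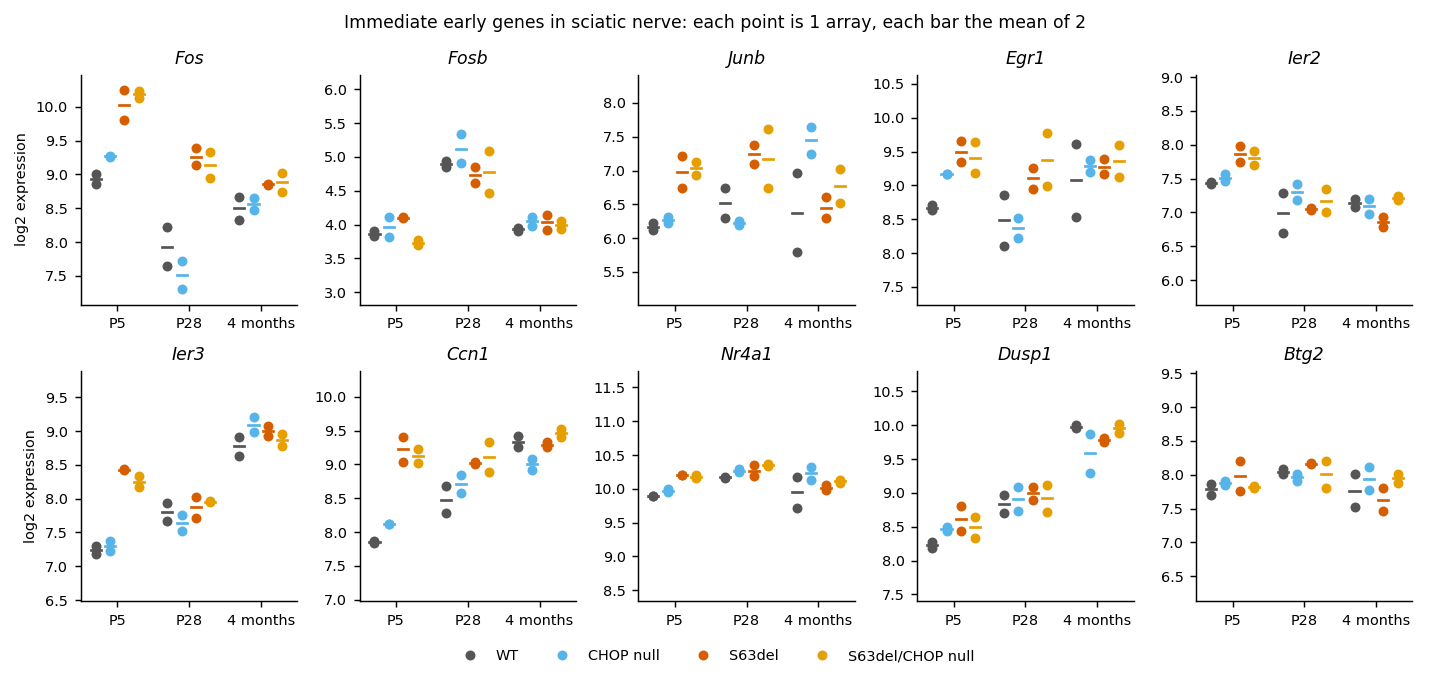
Log2 expression of the 10 genes (vertical axes, each spanning the same range) in each of the 24 arrays, by age and genotype; points are arrays and bars the mean of 2. At P5 the points of both S63del genotypes lie above all 4 points of WT and CHOP null for 7 genes, and at 4 months for Fos only.

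Ccn1, a secreted protein that binds integrins and is a target of YAP and SRF, read 7.83 and 7.87 in the WT arrays at P5, and 8.12 and 8.12 in those of CHOP null. S63del arrays read 9.41 and 9.04, and those without CHOP 9.22 and 9.03. The 4 mutant arrays lay above the 4 others without overlap, which is a rise of 2.59-fold with CHOP (1.37 ± 0.16, adjusted p = 8.52e-05) and, without it, of 2.01-fold (1.01 ± 0.16, adjusted p = 0.00207). Ccn1 has 2 probe sets, and the dimmer one gave 1.55 ± 0.20 with CHOP and 1.09 ± 0.20 without it. Leaving out S63del/CHOP null replicate 1 moved the second adjusted p to 0.052.

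Ier3, which modulates NF-kappaB and ERK signalling under stress, read 7.30 and 7.18 in WT at P5, while CHOP null arrays read 7.38 and 7.23. S63del arrays stood at 8.42 and 8.43, and those without CHOP at 8.33 and 8.17. Again the mutant arrays stood clear of the others, and replicates were at most 0.16 apart. The rise was 2.27-fold with CHOP (1.19 ± 0.14, adjusted p = 0.000103) and 1.93-fold without it (0.95 ± 0.14, adjusted p = 0.00111). Its call in S63del against WT held under all 13 alternatives of the processing, with adjusted p-values of 1.56e-06 to 0.00391.

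Fos, the prototype of the family and a partner of JUN proteins in AP-1, read 8.86 and 9.01 in WT at P5, while CHOP null arrays read 9.27 and 9.26. S63del arrays stood at 10.25 and 9.80, and those without CHOP at 10.24 and 10.12. The lowest mutant array was above the highest of the others. The rise was 2.12-fold with CHOP (1.09 ± 0.21, adjusted p = 0.00611) and 1.89-fold without it (0.92 ± 0.21, adjusted p = 0.025). The first call was lost on leaving out WT replicate 1 (adjusted p = 0.0868), or the first S63del array (adjusted p = 0.131), and the second without any 1 of its 4 arrays (adjusted p from 0.131 to 0.235).

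Junb, Egr1, Ier2 and Nr4a1 also had all 4 mutant P5 arrays above the 4 others, without being called. With the 3 above this makes 7 of the 10, where 11% of all genes showed that order and 11.6% the reverse. Junb, an AP-1 subunit that pairs with Fos, ranged from 6.74 to 7.22 in the mutant arrays and from 6.12 to 6.32 in the others. Its difference in S63del against WT was 0.81 ± 0.32 (adjusted p = 0.302). Egr1 was at 9.66 and 9.34 in S63del and 8.70 and 8.63 in WT (0.83 ± 0.32, adjusted p = 0.276), but its lowest mutant value, 9.18, was close to the highest of the others, 9.16, in CHOP null. Ier2 was at 7.75 and 7.98 in S63del and 7.42 and 7.45 in WT (0.43 ± 0.17, adjusted p = 0.292). Nr4a1 was at 10.20 and 10.21 in S63del and 9.90 and 9.90 in WT (0.31 ± 0.12, adjusted p = 0.312). These genes passed the threshold in S63del against WT when the 8 P5 arrays were fitted alone or when arrays were weighted, so that 7 of 10 were called. The share of all genes called was not taken in those fits. The count of 7 therefore has no background beside it and is no result about these genes. Dusp1, Btg2 and Fosb had overlapping ranges over the 8 P5 arrays, with differences of 0.39, 0.20 and 0.24 in S63del against WT.

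**Figure D2:**
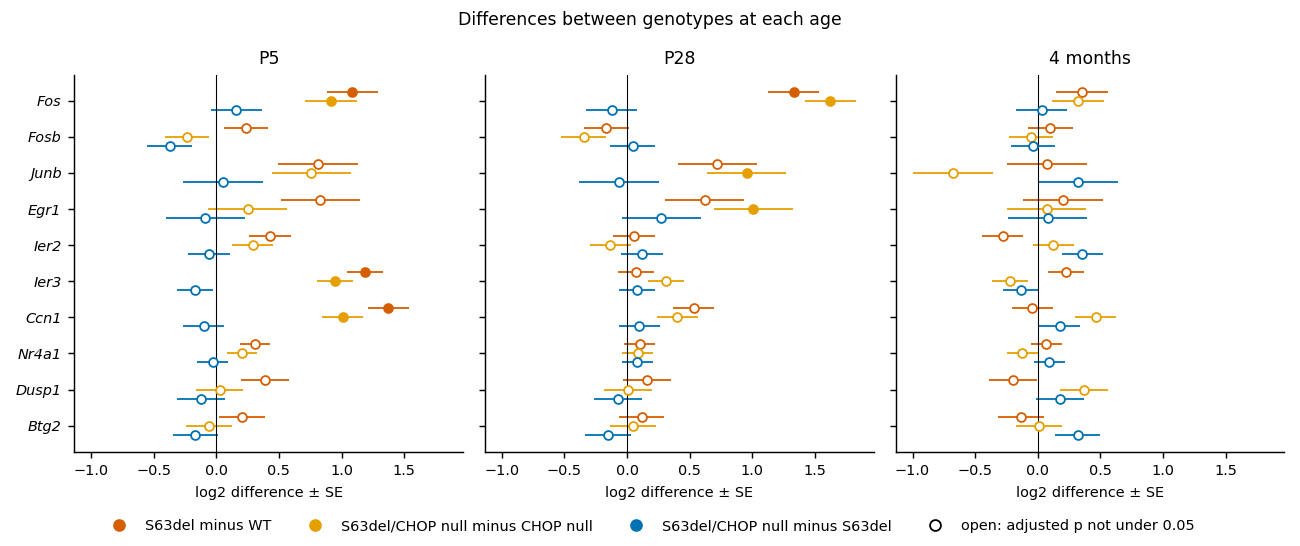
Log2 differences ± SE (horizontal axis) of the 10 genes at P5, P28 and 4 months for S63del minus WT, S63del/CHOP null minus CHOP null, and S63del/CHOP null minus S63del, 2 arrays against 2; filled points are called and open points are not. Filled points are Ccn1, Ier3 and Fos at P5 and Fos, Junb and Egr1 at P28, and the points of CHOP loss in mutant nerve are all open.

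Several measures moved with the mutant allele at P5, and their part in these results was not tested. The summed level of 14 cytosolic heat shock genes was 15.6 to 15.8 in the 4 mutant arrays and 14.9 to 15.0 in the 4 others; 9 of the 14 were called higher in S63del against WT, among them Hspa1a (5.21 ± 0.30) and Hspb1 (3.48 ± 0.16), which encode stress-inducible chaperones. The 6 Schwann cell markers summed to 15.15 to 15.23 in mutant arrays and 15.49 to 15.50 in the others. Markers of red cells (4 genes) summed to 9.22 to 9.69 against at least 10.03, of neutrophils (6 genes) to 7.86 to 9.03 against 9.09 to 9.65, of fibroblasts and perineurium (9 genes) to 15.4 to 15.5 against 15.6 to 15.7, and of vessels (9 genes) to 11.7 to 11.9 against 11.9 to 12.1. The 10 macrophage genes overlapped, at 12.66 to 12.80 and 12.65 to 12.88, as did the 12 skeletal muscle genes, at 12.04 to 13.75 and 12.23 to 14.78. Each marker has a log2 value whether or not its gene is expressed, so a value alone shows neither presence nor absence. Some markers were dim over all arrays, such as Hba-a1 of the red cell list, at 3.49 to 4.22. Ms4a1 of the mast cell and lymphocyte list was at 3.54 to 5.09. The Gapdh 3' minus 5' difference, a sign of RNA quality, was -0.19 to -0.17 in mutant arrays and -0.22 to -0.17 in the others.

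At P28, near the peak of myelination, Fos was the gene called in both comparisons. WT arrays read 7.64 and 8.22, and those of CHOP null 7.72 and 7.31. S63del arrays read 9.14 and 9.39, and those without CHOP 8.95 and 9.33. The highest of the 4 arrays without the mutant allele, 8.22, was well below the lowest with it, 8.95. Fos rose 2.52-fold in S63del against WT (1.33 ± 0.21, adjusted p = 0.0014) and 3.08-fold in S63del/CHOP null against CHOP null (1.62 ± 0.21, adjusted p = 0.000237). In the first comparison it was 1 of 10 genes called higher with none lower, against 4.62% of all genes, 3.01% higher and 1.61% lower. The first call was lost in the fit of the 8 P28 arrays alone (adjusted p = 0.0825), the second with array weights (adjusted p = 0.143).

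Without CHOP at P28 (S63del/CHOP null against CHOP null), Egr1 (1.01 ± 0.32, adjusted p = 0.0388) and Junb (0.96 ± 0.32, adjusted p = 0.0473) were called higher as well, so that 3 of 10 were higher and none lower, against 17.8% of all genes, 9.77% higher and 8.05% lower. Egr1 read 8.51 and 8.23 in CHOP null and 8.99 and 9.77 in S63del/CHOP null, and Junb read 6.19 and 6.26 against 6.75 and 7.61. The arrays did not overlap for either gene, but the replicates of S63del/CHOP null were 0.79 and 0.86 apart. Both calls were lost without S63del/CHOP null replicate 2 (adjusted p = 0.287 and 0.355) or without CHOP null replicate 2 (adjusted p = 0.231 and 0.174), and that of Junb also without CHOP null replicate 1 (adjusted p = 0.0666). The Fos call held on leaving out each of the 4 arrays. In S63del against WT neither was called, at 0.62 ± 0.32 for Egr1 and 0.72 ± 0.32 for Junb.

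Ccn1 and Ier3, called at P5, were not called at P28. WT arrays read 8.28 and 8.69 for Ccn1, and those of CHOP null 8.85 and 8.58. S63del arrays had a mean of 9.02 and lay 0.03 apart, and those without CHOP read 8.90 and 9.33. Its difference was 0.53 ± 0.16 (adjusted p = 0.0699) with CHOP and 0.40 ± 0.16 (adjusted p = 0.0933) without it. Leaving out WT replicate 2 moved the first to 0.74 (adjusted p = 0.0337), and leaving out CHOP null replicate 1 moved the second to 0.53 (adjusted p = 0.031). For the latter comparison the dimmer probe set gave 1.03 ± 0.20 and passed (adjusted p = 0.00567 over 20380 probe sets), with CHOP null at 7.82 and 6.96 in its replicates. Ier3 ranged from 7.71 to 8.03 in mutant arrays and from 7.53 to 7.93 in the others, with a difference of 0.07 ± 0.14 in S63del against WT. In all, 4 of the 10 genes (Fos, Junb, Egr1 and Ccn1) had the 4 mutant arrays above the 4 others at P28, against 12.1% of all genes. Except for Fos the lowest mutant value was close to the highest of the others. These values were 6.75 and 6.74 for Junb, 8.90 and 8.85 for Ccn1, and 8.95 and 8.86 for Egr1.

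The P28 groups also differed on the array itself. The 18S ribosomal RNA probe set was at 5.92 to 6.71 in the 4 mutant arrays and at 9.43 to 10.6 in the others, and the interquartile range was 3.38 to 3.52 against 2.90 to 3.38. With the arrays brought to 1 distribution the Fos differences were 1.25 and 1.56. In S63del/CHOP null against CHOP null that setting moved Egr1 to 0.86 and ended its call (adjusted p = 0.0688, limma), while Junb kept its call. Heat shock genes summed to 15.1 to 15.2 in mutant arrays against 14.5 to 14.8, and mast cell and lymphocyte markers (9 genes) to 11.53 to 11.73 against 10.45 to 11.08. The 12 skeletal muscle genes spread widely in both, at 11.54 to 15.25 and 13.44 to 15.65. Sums of the 6 Schwann cell markers overlapped, at 15.54 to 15.57 in mutant arrays and 15.54 to 15.62 in the others. Their mean log2 value was 12.21 to 12.37 in mutant arrays against 11.99 to 12.15. The part of these in the P28 results was not tested.

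At 4 months none of the 10 genes was called in S63del against WT or in S63del/CHOP null against CHOP null, where 0% of all genes were called in either comparison by limma. At an unadjusted p under 0.05 there were 0 and 2 of the 10, and 4.66% and 1.46% of all genes. Fos kept the order of arrays seen at the earlier ages, at 8.74 to 9.03 in the 4 mutant arrays and 8.33 to 8.66 in the others, 1 of 10 genes against 1.22% of all; its difference in S63del against WT was 0.35 (95% interval -0.08 to 0.79). Ccn1 read 9.41 and 9.25 in WT and 9.33 and 9.25 in S63del, and its difference of -0.04 had an interval of -0.39 to 0.30. Without CHOP, Ccn1 was at 9.53 and 9.41 in S63del/CHOP null and 8.92 and 9.09 in CHOP null. That difference was 0.46 (95% interval 0.12 to 0.81), not called but with an unadjusted p under 0.05. The other gene of the 2 was Junb, which was lower without CHOP (-0.68, interval -1.35 to -0.003). Heat shock sums overlapped at this age, at 15.2 to 15.3 in mutant arrays and 15.1 to 15.3 in the others. RNA quality differed between the groups of this age. The Gapdh 3' minus 5' difference was 1.32 and 1.05 in S63del and 2.12 and 0.08 in WT. It was 0.35 and 0.55 in S63del/CHOP null and 0.03 and -0.04 in CHOP null. Its part in the 4 month results was not tested.

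The change of the mutant effect with age was tested directly. Ier3's difference between S63del and WT was smaller at P28 than at P5, with a change of -1.11 ± 0.20 (adjusted p = 0.0152), 1 of 10 genes against 0.476% of all genes in either direction. For Ccn1 the difference was smaller at 4 months than at P5, with a change of -1.41 ± 0.23 (adjusted p = 0.00868), 1 of 10 against 0.282%. For Ccn1 the WT level met that of S63del: the WT mean was 7.85 at P5 and 9.33 at 4 months, and the S63del mean 9.23 and 9.29. For Ier3 the means moved toward each other, from 7.24 at P5 to 7.80 at P28 in WT and from 8.43 to 7.87 in S63del. Both calls depended on single arrays. The Ier3 call was lost on leaving out any of the 4 P5 arrays, or replicate 2 of WT or S63del at P28 (adjusted p from 0.0561 to 0.107). The Ccn1 call was lost without replicate 1 of WT or S63del at P5, WT 4 months replicate 1 or S63del 4 months replicate 2 (adjusted p from 0.0609 to 0.0718). Between P28 and 4 months none of the 10 was called, against 0.169% of all genes, 2 had an unadjusted p under 0.05, against 8.59% of all genes, and for Fos the change was -0.98 ± 0.29 (adjusted p = 0.381).

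Loss of CHOP changed none of the 10 genes past the threshold at any age, on either background. In S63del/CHOP null against S63del, the comparison that asks whether the immediate early genes of mutant nerve need CHOP, 0.0161%, 0.00807% and 0.00807% of all genes were called at P5, P28 and 4 months by limma. At an unadjusted p under 0.05 there were 0, 0 and 1 of the 10, against 0.888%, 3.76% and 2.21% of all genes. At P5 both arrays were below those of S63del for 3 of the 10 genes (Fosb, Ier3 and Nr4a1) and above for none, against 13.1% and 14.2% of all genes, and the differences were -0.10 for Ccn1 (95% interval -0.45 to 0.25), -0.17 for Ier3 (-0.48 to 0.13) and 0.16 for Fos (-0.27 to 0.59), and at P28 it was -0.12 for Fos (-0.56 to 0.31). For these genes a p that missed the threshold does not show that CHOP loss had no effect, since the intervals reach well to both sides of 0. The interaction of the S63del allele with CHOP loss was below 0 for 10 of 10 genes at P5, with a median of -0.25 against 0.01 over all genes. By limma 0 of the 10 were called, as were 0% of all genes, and 0 had an unadjusted p under 0.05, against 0.863% of all genes. In CHOP null against WT 0%, 0% and 0.00807% of all genes were called at the 3 ages, and 0, 0 and 3 of the 10 had an unadjusted p under 0.05, against 0.92%, 10% and 5.91% of all genes. At P5 the direction was nonetheless shared: 10 of 10 differences lay above 0, with a median of 0.10 against -0.02 over all genes. Both CHOP null arrays were above both WT arrays for 7 of the 10 (Fos, Junb, Egr1, Ier2, Ccn1, Nr4a1 and Dusp1) and below for none, against 13.5% and 18.4% of all genes. The differences with the smallest unadjusted p among these were those of Fos (0.33 ± 0.21), Ccn1 (0.26 ± 0.16) and Egr1 (0.49 ± 0.32). At P5 the comparisons of CHOP null and of S63del with WT and the interaction all use the same WT arrays. Their counts of direction are therefore not independent. At 4 months Junb was among the 3, at 7.65 and 7.24 in CHOP null and 5.79 and 6.96 in WT (1.07 ± 0.32, adjusted p = 0.736).

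In WT nerve the 10 genes did not share a course with age. Dusp1, which switches off MAP kinases, rose from 8.19 and 8.27 at P5 through 8.71 and 8.96 at P28 to a mean of 9.98 with replicates 0.05 apart at 4 months, a rise of 3.36-fold from P5 to 4 months (1.75 ± 0.19, adjusted p = 1.19e-06). Ier3 (1.53 ± 0.14) and Ccn1 (1.48 ± 0.16) rose over the same interval, 3 of 10 called higher and none lower against 36.8% of all genes, 21.3% higher and 15.5% lower. From P5 to P28 Fosb, Ccn1, Dusp1 and Ier3 were called higher and Fos and Ier2 lower, against 59.5% of all genes, 31.3% higher and 28.2% lower. Leaving out WT P28 replicate 2 ended the calls of Ccn1 (adjusted p = 0.0653) and Dusp1 (adjusted p = 0.0948), and that of Dusp1 was also lost without WT P5 replicate 1 (adjusted p = 0.0642). Ier2's fall was lost without WT P28 replicate 1 (-0.15, adjusted p = 0.478) or either WT P5 array (adjusted p = 0.0848 and 0.104). From P28 to 4 months Dusp1, Ier3, Ccn1 and Fos were called higher and Fosb lower, against 57% of all genes, 31.5% higher and 25.5% lower. Fos in WT was thus lowest at P28, with 8.86 and 9.01 at P5, 7.64 and 8.22 at P28 and 8.66 and 8.33 at 4 months. The rise from P28 to 4 months was 0.57 ± 0.21 (adjusted p = 0.027) as deposited and 0.29 (adjusted p = 0.259) with the arrays brought to 1 distribution, and was not called without WT P28 replicate 1 (0.27) or WT 4 months replicate 1 (0.40). Fosb, with values of 3.69 to 5.34 among the dim genes of the array, read 3.91 and 3.83, then 4.86 and 4.94, then 3.95 and 3.91 at the 3 ages, and its rise at P28 was 1.03 as deposited and 0.73 with 1 distribution.

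RNA quality and cell markers moved with age in the same WT arrays, and their part in these changes was not tested. The Gapdh 3' minus 5' difference was -0.22 and -0.17 at P5, -0.05 and 0.30 at P28, and 2.12 and 0.08 at 4 months, and that of Actb 0.44 and 0.33, 0.67 and 0.87, and 1.82 and 0.84. Adipocyte markers (5 genes) summed to 12.92 to 13.26 at P5 and 14.80 to 14.98 at 4 months, vessel markers to 12.08 to 12.09 and 12.73 to 12.87, and mast cell and lymphocyte markers to 9.45 to 9.50 and 11.67 to 12.50. Skeletal muscle markers summed to 12.60 to 14.78 at P5, 15.07 to 15.49 at P28 and 10.19 to 11.08 at 4 months. Dusp1, Ier3 and Ccn1 kept their calls at 4 months against P5 without WT 4 months replicate 1, the array with the Gapdh difference of 2.12.

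Across the 12 groups, Fos was highest in the S63del genotypes at P5 (means of 10.18 without CHOP and 10.02 with it, which overlap in their arrays) and lowest in CHOP null and WT at P28 (7.51 and 7.93). Ccn1, Dusp1 and Ier3 all had their lowest means in WT and CHOP null at P5. Nr4a1 covered the narrowest range, from 9.72 to 10.36 over the 24 arrays, and Fos the widest, from 7.31 to 10.25.

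The 2 probe sets of Btg2 gave different accounts of age. The brighter was at 7.71 and 7.86 in WT at P5 and at 7.52 and 8.01 at 4 months (-0.02 ± 0.19). The dimmer rose from 6.80 and 6.87 to 8.04 and 7.78 (1.08 ± 0.15, adjusted p = 1.72e-05 over probe sets). Neither was called in S63del against WT at any age. At P28 the dimmer one was called in S63del/CHOP null against CHOP null (0.48 ± 0.15, adjusted p = 0.038) and the brighter was not (0.05 ± 0.19). For Btg2 the direction with age thus depended on the probe set, and that of Ccn1 did not.

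**Figure D3:**
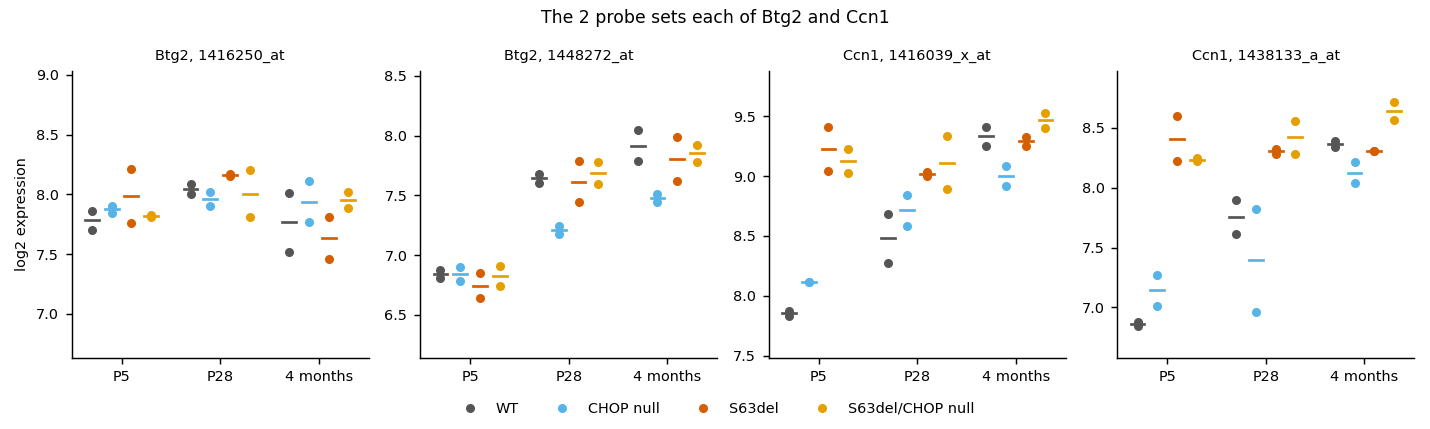
Log2 expression (vertical axis) of both probe sets of Btg2 and both of Ccn1 in each of the 24 arrays, by age and genotype; points are arrays and bars means of 2. WT values of Btg2 rise with age on the dimmer probe set and not on the brighter, while both Ccn1 probe sets separate the S63del genotypes at P5.

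The gap between the 2 arrays of a group shows how far these genes varied without a difference in genotype or age. Junb and Egr1 had residual SDs of 0.364 and 0.363, at the 97.5th percentile of all genes, whose median was 0.164. Their largest gaps both fell in WT at 4 months and ran in opposite directions: Junb read 5.79 and 6.96, Egr1 9.61 and 8.54. Fos had a residual SD of 0.222 and a largest gap of 0.58, in WT at P28. Nr4a1 and Ier3 were steadier, with residual SDs of 0.109 and 0.140. The gaps of Ccn1 and Ier3 were at most 0.44 and 0.32, below their P5 differences between genotypes.

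In some groups most of the 10 genes leaned the same way between replicates. Replicate 1 was lower than replicate 2 for 10 of 10 genes in WT at P28 (median gap -0.34) and for 9 of 10 in S63del/CHOP null at P28 (median gap -0.40), while it was higher for 43.1% and 46.2% of all genes. The Gapdh 3' minus 5' difference in those pairs was -0.05 and 0.30, and 0.09 and 0.29; it was lower in replicate 1 for all 4 genotypes at P28, including CHOP null and S63del, where 5 of the 10 genes were lower in replicate 1. In S63del at P5 Fos, Junb, Ccn1, Dusp1, Btg2 and Egr1 were 0.32 to 0.48 higher in replicate 1, while Ier3, Nr4a1 and Fosb were within 0.02 and Ier2 ran the other way (-0.22). Both replicates of S63del lay above both WT arrays for Fos, Junb, Ccn1, Dusp1 and Egr1. At P5 the WT and CHOP null pairs were tight, with median absolute gaps of 0.08 and 0.05 over the 10 genes. Whether dissection or freezing contributed to any difference between genotypes was not tested: the labels record no dissection order, day or interval.

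**Figure D4:**
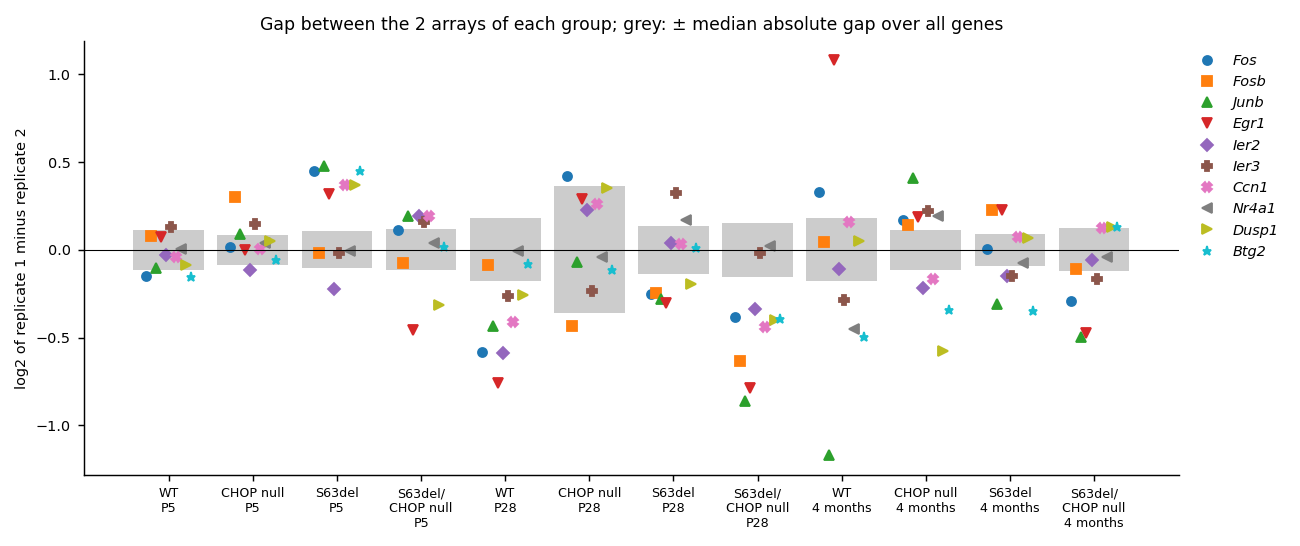
Log2 value of replicate 1 minus replicate 2 (vertical axis) for the 10 genes in each of the 12 groups; the grey band is ± the median absolute gap over all genes in that group. All 10 genes lie below 0 in WT at P28, and the widest gaps are those of Junb (-1.17) and Egr1 (1.08) in WT at 4 months.

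As a description of how the genes moved together, the 45 pairs among the 10 had a median Pearson r of 0.09 over the 24 arrays, with 27 pairs above 0, and of 0.23 over the 12 replicate gaps, with 33 above 0. Fos and Egr1 were alike on both measures (0.72 over arrays and 0.80 over gaps). Ier3 and Ccn1 were alike over arrays (0.80), which differ in age and genotype, and not over gaps (-0.05). The genes outside the 10 most like their mean over the 24 arrays were Lgals3 (r = 0.87), Hspa1b (0.86), Uchl1 (0.85), Sqstm1 (0.84) and Slc25a33 (0.83), and over the 12 gaps Ncoa1 (0.93), Cdyl (0.91), Grasp (0.90), Tbc1d10b (0.89) and Furin (0.89). No gene stood in both sets.

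Of 48 further measured immediate early genes, 4 were called higher and none lower in S63del against WT at P5, with a median of 0.11, against 1.15% and 1.26% of all genes: Atf3, a stress-induced bZIP factor (1.81 ± 0.20, adjusted p = 3.48e-05), Cebpd, an acute phase factor (0.84 ± 0.16, adjusted p = 0.0061), Fosl1, an AP-1 subunit (1.06 ± 0.21, adjusted p = 0.00907), and Dusp6, a phosphatase of ERK (0.65 ± 0.17, adjusted p = 0.0482). Without CHOP, again 4 of 48 were called higher and none lower, against 0.904% and 0.88% of all genes: Atf3 (1.68 ± 0.20), Gadd45b (1.05 ± 0.20), Cebpd (0.72 ± 0.16) and Maff (0.89 ± 0.22). Atf3 and Cebpd were thus called in both. Under the alternatives these counts ran from 1 to 13 and from 1 to 11. At P28 6 were called higher in S63del against WT, with a median of 0.08, and none lower, against 3.01% and 1.61% of all genes: Socs3, a feedback inhibitor of cytokine signalling (1.31 ± 0.29), Atf3 (1.16 ± 0.20), Rgs2 (1.01 ± 0.19), Cebpd (0.94 ± 0.16), Jun (0.80 ± 0.20) and Btg1 (0.64 ± 0.15). Without CHOP at P28, 11 of 48 were called higher and 3 lower, where 9.77% of all genes were higher and 8.05% lower. Jun (1.36 ± 0.20), Atf3 (1.25 ± 0.20) and Btg1 (0.87 ± 0.15) had the smallest p-values. The P28 counts ran from 0 to 12 and from 0 to 28 under the alternatives. At 4 months none was called in either comparison.

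**Figure D5:**
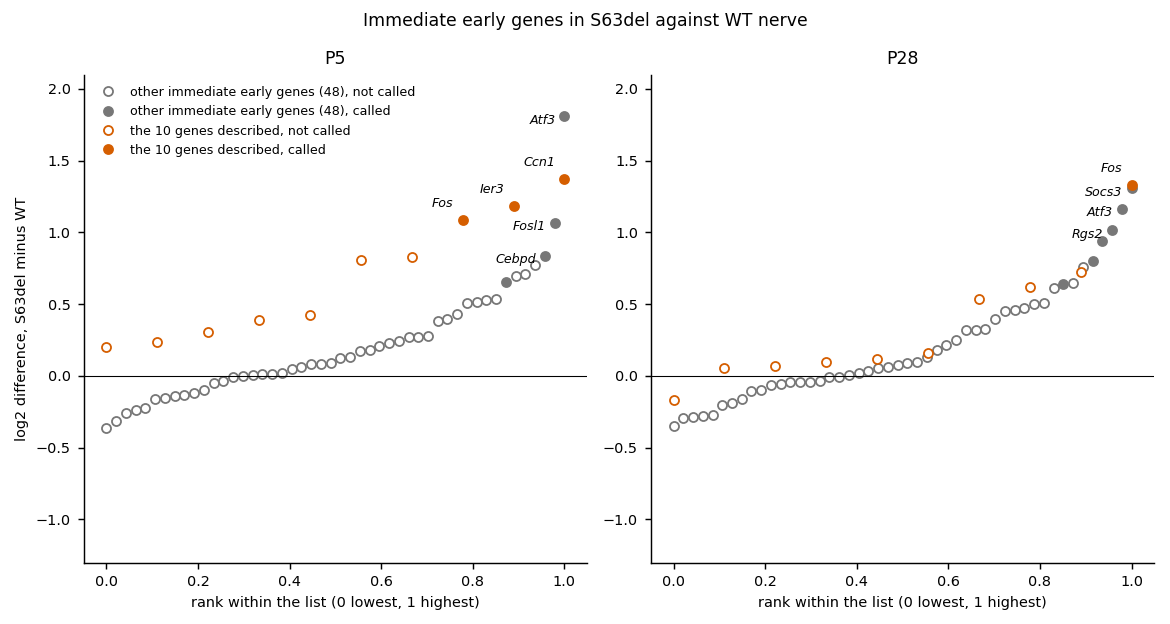
Log2 difference of S63del minus WT (vertical axis) at P5 and P28 for the 10 genes described and 48 other immediate early genes, each ordered from lowest to highest within its list (horizontal axis); filled points are called, and up to 3 of these per list and age are named. At P5 all 10 genes lie above 0, from 0.20 to 1.37, while 33 of the 48 do.

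Lists of upstream and related pathways were also read. Of 28 measured genes of the MAP kinase and SRF pathway none was called in S63del against WT at P5 or 4 months, where 2.4% and 0% of all genes were. At P28 2 were called higher, against 3.01% of all genes, which is near the background. They were Spred2, an inhibitor of RAS signalling (0.71 ± 0.19, adjusted p = 0.0385), and Erbb3, the neuregulin receptor of Schwann cells (0.60 ± 0.17, adjusted p = 0.0491). Erbb3 is also among the Schwann cell markers used here. Without CHOP at P28, 5 of 28 were called higher and 1 lower, Spred2 (1.04 ± 0.19) and Erbb3 (0.90 ± 0.17) with the smallest p-values. In that comparison 17.8% of all genes were called, so the count is near the background, and it ran from 0 to 15 under the alternatives. The summed level of the list was 13.22 to 13.34 in the 4 mutant arrays at P28 and 12.89 to 13.10 in the others, and overlapped at P5 and 4 months. None of 14 YAP and TAZ targets other than Ccn1 was called in S63del against WT at any age. Of all genes 2.4%, 4.62% and 0% were called at P5, P28 and 4 months. With so short a list that count is near the background and says nothing of the pathway. Of 15 hypoxia response genes none was called higher and 1 lower at P5 in S63del against WT (Ndrg1, -0.67 ± 0.11), against 1.15% and 1.26% of all genes. Their summed level was lower in the mutant arrays, at 13.10 to 13.25 against 13.35 to 13.49 at P5 and 14.25 to 14.31 against 14.33 to 14.48 at P28.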

How the data were processed

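RNA of 24 sciatic nerve samples was measured on Affymetrix arrays. The authors deposited log2 expression of 22690 probe sets. The unit follows from the range of the values. The sources used here do not name the software or normalization. The deposited values were not transformed again. Probe sets with 1 gene symbol (20380) were kept; 691 with several, 1555 with none and 64 controls were left out. Gene IDs of 20351 matched the GRCm38.p6 gene table. The brightest of a gene's probe sets was used (12393 genes). A model with a mean for each group was fitted to the 24 arrays in limma 3.58.1 (R 4.3.3; lmFit and eBayes, 12 residual degrees of freedom). P-values of 22 contrasts were adjusted by Benjamini-Hochberg across all genes, with 0.05 as the limit for a call. Labels name biological replicates but not animals, so p-values measure the spread between these samples. Intervals are 95%, from the moderated t. On simulated data 86%, 82.3% and 84.3% of changes of log2 1 were recovered for the 3 comparisons of S63del with WT in order of age, and 4.04%, 4.76% and 5.54% of calls were false. The simulated noise was normal, independent between genes and of equal spread in all arrays. It held no arrays that stood apart and no genes that leaned together between replicates, so these rates need not hold for the data.

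Members and lists were chosen with earlier results of these data known. Named are all 10 members and, per pathway list and genotype comparison, up to 6 called genes with the smallest p, of which the text prints part, besides the 5 genes most like the members' mean on each of 2 measures. A list's summed level is log2 of its summed linear values per array. Alternatives were quantile normalization again, the mean of a gene's probe sets, every probe set on its own, genes under the 40th percentile left out, the arrays of the ages compared only, array weights, robust estimation with an intensity trend, a block on replicate number, leaving out the arrays that stood apart, and leaving out 1 array of the compared groups at a time. Promoter windows come from RefSeq.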

Additional observations from a re-analysis of the deposited data

Results flagged for a closer look

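The effect of the S63del allele differed between ages, by a test of the difference itself, for Ier3 and Ccn1. For Ier3 the S63del minus WT difference was 1.19 at P5 and 0.07 at P28, a change of -1.11 (adjusted p = 0.0152, limma). For Ccn1 it was 1.37 at P5 and -0.04 at 4 months, a change of -1.41 (adjusted p = 0.00868). In both cases the 2 S63del arrays lay above the 2 WT arrays at P5 and overlapped with them at the later age. Groups of 2 arrays are too small for a test of outlying values.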

How the results depend on the processing

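Of 220 tests of a member in a comparison 29 passed the threshold; 16 of these passed under every alternative and 13 were lost under some, while 23 others passed under some. Shares of all genes called were taken from the main fit only, so counts under the alternatives have no background beside them. In S63del against WT at P5 3 members were called, and 7 with the P5 arrays alone or with array weights. At P28 1 was called, 0 with the P28 arrays alone, and 2 with dim genes left out or without the arrays that stood apart. In S63del/CHOP null against CHOP null at P28 3 became 1 with the P28 arrays alone, 0 with array weights and 1 without CHOP null P28 replicate 2 and WT 4 months replicate 1. For the S63del effect at 4 months minus P5 1 became 2, with Ier3 added, with dim genes left out, the arrays of both ages alone, array weights, trend and robust estimation, or the arrays that stood apart left out. In WT at 4 months against P5 3 became 5 with the arrays of both ages alone. Btg2 in that comparison turned from -0.02 to 0.53 (adjusted p = 0.00475) with the mean of its probe sets, which differ. Other causes were not tested. The block on replicate number (replicate block) changed no count of members called, with 3 in S63del against WT at P5; the numbers are not said to mark shared animals or days, and gaps of same-numbered pairs correlated between -0.48 and 0.35.

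Leaving out 1 array at a time gave 2 to 3 members in S63del against WT at P5, 1 to 2 at P28 and 3 to 5 averaged over ages (3 with all arrays). It gave 1 to 2 in S63del/CHOP null against CHOP null at P5 and 1 to 4 at P28, 0 to 2 in CHOP null against WT at 4 months (Junb and Nr4a1 without WT replicate 2), 0 to 1 for each change of the S63del effect from P5, and 4 to 8 in WT at 4 months against P28 (5 with all arrays). Calls among the 48 other immediate early genes ran from 1 to 13 at P5 and from 0 to 12 at P28 in S63del against WT, from 1 to 11 and from 0 to 28 in S63del/CHOP null against CHOP null, and those of the MAP kinase and SRF list at P28 from 0 to 6 and from 0 to 15. Precision is limited by 2 arrays a group, and for Fosb by its dim signal.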
